A study of Mus musculus with 19 samples.

Results

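Granzymes are serine proteases of cytotoxic lymphocytes. They are stored in secretory granules and enter a target cell through pores made by perforin, the product of Prf1, after which granzyme B cleaves caspases and other substrates inside that cell. In mice a run of closely related genes, Gzmc to Gzmg and Gzmn, lies next to Gzmb, and outside killer cells granzymes are also known as extracellular proteases that cut matrix proteins. The genes described here are Gzma, Gzmb, Gzmc, Gzmd, Gzme, Gzmf and Prf1, 7 of the 27998 genes in the deposited matrices. They were chosen by values of these same data, namely their levels and the share of cells with a unique molecular identifier (UMI, one counted transcript) in lymphocytes against Pdgfra+ cells over the days and the p7N3 treatment. Comparisons along those lines are therefore given as descriptions without a test.

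The data were 19 droplet single-cell RNA libraries from the Achilles tenotomy site of mice carrying a dorsal scald burn and tendon transection, an injury that leads to heterotopic ossification (HO), which is bone formed outside the skeleton. There were 4 libraries at day 0, 3 at day 3, 4 at day 7, 4 at day 21 and 4 after p7N3, a peptide that activates CD47, given intraperitoneally at 10 mg/kg daily for 3 days before and 3 days after injury. C57 and LysmCre/Tgfb1fx/fx mice are both named in the labels, which do not tie a genotype to any library. LysM-Cre is a driver for myeloid cells. The mice were described as young adult males. Day 0 libraries carry the burn in their labels, whereas the methods describe that time as uninjured. The day 7 labels name no vehicle. The label of p7N3 replicate 4 gives no harvest day, whereas the other p7N3 libraries are labelled day 7. Whether libraries of a group came from separate mice is not stated in the labels, so errors measure the spread between libraries.

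Filtering on detected genes (500 or more) and on mitochondrial UMIs (25% or less) left 39541 cells. Lymphocytes were Ptprc+ Pdgfra- cells with at least 3 of a list of T, NK and B cell genes, none of them a granzyme. They also needed more UMIs of that list than of the myeloid markers. There were 575 of them, 104 at day 0, 35 at day 3, 218 at day 7, 27 at day 21 and 191 after p7N3. Pdgfra+ Ptprc- cells numbered 10025, in the same order 965, 441, 3703, 1894 and 3022. In each library at least 98.3% of the second class held a UMI of any of the fibroblast markers (Col1a1, Col1a2, Col3a1, Dcn, Lum). So did 97.7% to 100% of lymphocytes in the day 7 libraries, so this share does not separate the classes. The summed level of these markers, given below, was higher in the second class, which is called fibroblasts from here on. At the edge of the lymphocyte gate, 85 cells held exactly 3 gate genes and 267 cells just outside held 2. The condition on myeloid markers kept out 110 cells with at least 3 gate genes, 50 of them at day 3. Of the fibroblasts, 37.6% were placed by a single Pdgfra UMI.

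Depth differed between the libraries. The UMIs per library ran from 3019467 to 5383855 at day 0 and from 11064153 to 39870492 at the other times, and no pair of libraries shared more than 22 barcodes. Lymphocytes of day 7 held a median of 3166 to 5112 UMIs per cell and fibroblasts of day 7 held 10963 to 19114. At day 3 these medians were 10070 to 10759 in lymphocytes and 28810 to 33765 in fibroblasts. Transcripts of fibroblasts were found in lymphocyte sums, at 1493 to 11798 CPM (UMIs of a gene for every 1e+06 UMIs of its class in that library) for the 5 fibroblast markers together at day 7 against 47435 to 60097 in fibroblasts. The T cell and NK cell markers in fibroblasts each stayed at or below 5.70 CPM in every library. In day 3 fibroblasts 4 granulocyte markers together were at 1400 to 2361 CPM. At day 3, 585 cells with both Pdgfra and Ptprc lay outside both classes, against 441 fibroblasts. They held 9 of the 15 Gzme UMIs of that time and fibroblasts held 5, so the day 3 fibroblast values rest on deep and selected cells. All levels below are CPM of the UMIs summed over a class within a library. Fewer expressing cells and fewer transcripts per cell cannot be told apart in such a sum. The counts come from transcript 3' ends and do not scale with length, so a level is compared between classes and times for one gene and not between genes.

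Of the members, 5 are neighbours in the mouse genome. In GRCm38, Gzme (chr14:56117626-56120625), Gzmd (chr14:56129556-56132608), Gzmf (chr14:56205263-56211417), Gzmc (chr14:56231441-56234656) and Gzmb (chr14:56258838-56262260) occupy, with Gzmg and Gzmn, 144635 bases on the minus strand of chromosome 14. Gzma (chr13:113093825-113100981) lies on chromosome 13 and Prf1 (chr10:61297833-61304680) on chromosome 10. The 150 bases before the RefSeq start of the genes that the results turn on are shown in GRCm38.p6, each 5′ to 3′ on the gene's own strand, because Gzmb to Gzme rose and fell together in fibroblasts. Capitals mark TGTGGT or its reverse complement ACCACA (letters bound by RUNX factors), TGANTCA (AP-1) and TGACGTCA (the cAMP response element).
Gzma, chr13:113100982-113101131: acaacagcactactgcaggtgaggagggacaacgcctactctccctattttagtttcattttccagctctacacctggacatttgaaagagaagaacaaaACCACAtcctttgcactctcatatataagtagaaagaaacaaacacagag
Gzmb, chr14:56262335-56262484: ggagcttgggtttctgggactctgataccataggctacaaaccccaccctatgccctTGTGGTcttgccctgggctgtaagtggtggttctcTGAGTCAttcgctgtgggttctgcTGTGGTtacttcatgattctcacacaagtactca
Gzmc, chr14:56234658-56234807: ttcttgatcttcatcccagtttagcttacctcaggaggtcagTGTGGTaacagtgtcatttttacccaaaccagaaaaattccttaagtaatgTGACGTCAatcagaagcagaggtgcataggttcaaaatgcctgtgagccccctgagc
Gzmd, chr14:56132594-56132743: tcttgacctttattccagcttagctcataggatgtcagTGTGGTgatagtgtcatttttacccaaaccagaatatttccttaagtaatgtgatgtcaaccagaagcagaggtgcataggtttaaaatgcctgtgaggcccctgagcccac
Gzme, chr14:56120626-56120775: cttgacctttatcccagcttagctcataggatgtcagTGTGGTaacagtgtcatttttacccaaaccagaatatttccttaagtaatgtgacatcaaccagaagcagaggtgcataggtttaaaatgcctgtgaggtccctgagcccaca

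The shown windows of Gzmc, Gzmd and Gzme were close copies. Identity over the aligned bases was 96.0% between Gzmd and Gzme and 91.0% between Gzmc and Gzme, whereas Gzmb matched the other chromosome 14 members at 57.2% to 59.5%. All 7 members held TGTGGT or ACCACA in this window, as did 8.40% of 32851 RefSeq promoters of the same length. The cAMP response element stood in Gzmc and Gzmf (1.36% of promoters) and TGANTCA in Gzmb (4.24%), and TATAAA was in none of the 7 (7.57%). These matches describe letters and were not tied to binding of any factor. In the transcripts, the last 500 bases of Gzmd and Gzme were 96.5% identical, but no run of 98 bases, the read length, was shared by any pair of the members and the other granzymes there. Reads with mismatches could still be split between Gzmd, Gzme and Gzmf, whose separate counts are uncertain to that extent.

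Gzma, a tryptase among the granzymes, belonged to the lymphocytes at all times. Its lymphocyte level was 642, 794, 1052 and 802 CPM in the day 0 libraries, 178, 552 and 0 at day 3, 706, 639, 1439 and 900 at day 7, 460, 712, 0 and 1368 at day 21, and 822, 598, 1172 and 999.6 after p7N3. The ranges of day 0, day 7 and p7N3 overlapped, and the empty libraries were among those with 5 to 15 lymphocytes. In fibroblasts the gene did not exceed 1.16 CPM in any library. Lymphocytes with a Gzma UMI made up 30.7% of the class at day 7, against 0.756% of fibroblasts, 0.472% of myeloid cells and 0.747% of endothelial cells, so the fibroblast share lay at the level of classes that should lack it. Thinned to 1500 UMIs per cell, with 0 cells of day 7 left out as shallower, the lymphocyte share was 26.6% and the fibroblast share 0.162%.

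Gzmb, the caspase-cleaving granzyme, was present in both classes. In lymphocytes it measured 87.0, 0, 61.9 and 102 CPM at day 0, 293, 196 and 494 at day 3, 610, 401, 217 and 560 at day 7, 145, 89.0, 0 and 217 at day 21, and 423, 313, 153 and 240 after p7N3. Every day 3 and day 7 library lay above every day 0 library. Markers of other cells in the same lymphocyte sums also differed. The summed level of 4 granulocyte markers was 0 to 29.4 CPM in day 0 libraries, 1253 to 3911 in day 3 libraries and 76.8 to 330 in day 7 libraries. For 8 myeloid markers it was 58.3 to 187, 713 to 823 and 222 to 288 CPM in the same order. For the 5 fibroblast markers it did not exceed 647 CPM at day 0, and was 649 to 1185 CPM at day 3 and, as given above, higher at day 7. Their part in the Gzmb values was not tested. The share of lymphocytes with a UMI rose alongside, from 6.73% at day 0 to 32.1% at day 7, or from 5.05% to 21.1% at 1500 UMIs per cell.

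Fibroblasts held Gzmb at a lower level. The 4 day 0 libraries held 0 UMIs, and the day 3 libraries 0.677, 0.760 and 0.691 CPM. At day 7 the values were 8.73, 3.50, 16.7 and 3.95 CPM, at day 21 0.105, 0.862, 0.219 and 1.12, and after p7N3 8.44, 10.1, 13.8 and 4.03. All day 7 libraries exceeded all day 0, day 3 and day 21 libraries. Of day 7 fibroblasts 3.35% held a Gzmb UMI, against 0.389% of myeloid cells (median depth 4760 to 6267 UMIs) and 0.598% of endothelial cells (7925 to 10787 UMIs). At 1500 UMIs per cell those shares were 0.675%, 0.0833% and 0%.

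Gzme, a granzyme known from activated killer cells and the pregnant uterus, was a fibroblast transcript in these tissues. Its fibroblast level was 0 in the 4 day 0 libraries and 0.451, 0.304 and 0.346 CPM at day 3. It stood at 55.4, 41.0, 33.9 and 12.7 CPM at day 7, 12.3, 6.46, 1.97 and 7.35 at day 21, and 32.5, 48.6, 63.8 and 17.8 after p7N3. The lowest day 7 library was just above the highest day 21 library, and the day 7 and p7N3 ranges overlapped. In lymphocytes 4 UMIs were counted over all 19 libraries, 3 of them in day 7 replicate 2 and 1 in p7N3 replicate 2.

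Cells with a Gzme UMI were a minority of the fibroblasts. They made up 11.8%, 15.2%, 7.84% and 7.59% of the class in the day 7 libraries, 1.85%, 2.92%, 1.75% and 4.38% at day 21, and 10.1%, 12.2%, 14.9% and 8.19% after p7N3. At day 0, 0 of 965 cells held one. With cells pooled over the libraries and counted as independent, an upper limit of 3 cells is a share of 0.311%. The spread between libraries is not in that limit. That limit is on cells with a UMI, at a median of 4485 to 6462 UMIs per cell in the day 0 libraries against 10963 to 19114 at day 7, and not on cells expressing the gene. Over the day 7 libraries the share was 10.6% in fibroblasts, 0.611% in myeloid cells and 1.49% in endothelial cells. Thinning every cell to 1500 UMIs left 3.13%, 0.222% and 0.299%, and 3.04% of fibroblasts after p7N3.

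Gzmd and Gzmc followed Gzme. Gzmd was at 0 in fibroblasts of every day 0 and day 3 library. It was 15, 14.4, 16 and 3.26 CPM at day 7, 3.46, 0, 0.219 and 2.48 at day 21 and 10.9, 19.1, 13.2 and 4.10 after p7N3. The day 7 and day 21 ranges overlapped through day 7 replicate 4 alone. Lymphocytes held 2 Gzmd UMIs in all, both in p7N3 replicate 2.

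Gzmc had UMIs in fibroblasts and, in smaller number, in lymphocytes. In fibroblasts it was 0 at day 0, 0.226, 0.456 and 0.346 CPM at day 3, 21.0, 11.2, 24.3 and 7.14 at day 7, 1.99, 3.66, 2.41 and 4.16 at day 21, and 16.5, 14, 20.1 and 8.27 after p7N3. Day 7 lay above day 21 in each library. In lymphocytes it was 35.9, 8.30, 6.40 and 127 CPM at day 7 and 147, 40.3, 0 and 5.00 after p7N3, and 0 in all day 0 and day 21 libraries. At day 3 the lymphocyte values were 0, 26.7 and 51.5 CPM, from 8 UMIs in 3 cells. The day 7 and p7N3 spread was wider than in fibroblasts and rested on 53 UMIs in 16 cells at day 7 and 69 UMIs in 10 cells after p7N3.

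The remaining members were scarce. Gzmf had 9, 0, 15 and 0 UMIs in day 7 fibroblasts, 1 after p7N3 and 1 in lymphocytes. Prf1, without which granzymes do not reach the cytosol of a target cell by the classical route, had 31 UMIs in the whole series, 23 of them in lymphocytes and 2 in fibroblasts, both at day 7. Day 7 fibroblasts carried 1957 Gzme UMIs beside those 2, but counts are not compared between genes. Day 7 lymphocytes, 218 cells, held only 8 Prf1 UMIs, so a low count does not show that Prf1 was absent from fibroblasts. At this depth Prf1 could not be followed over time in either class.

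**Figure D1:**
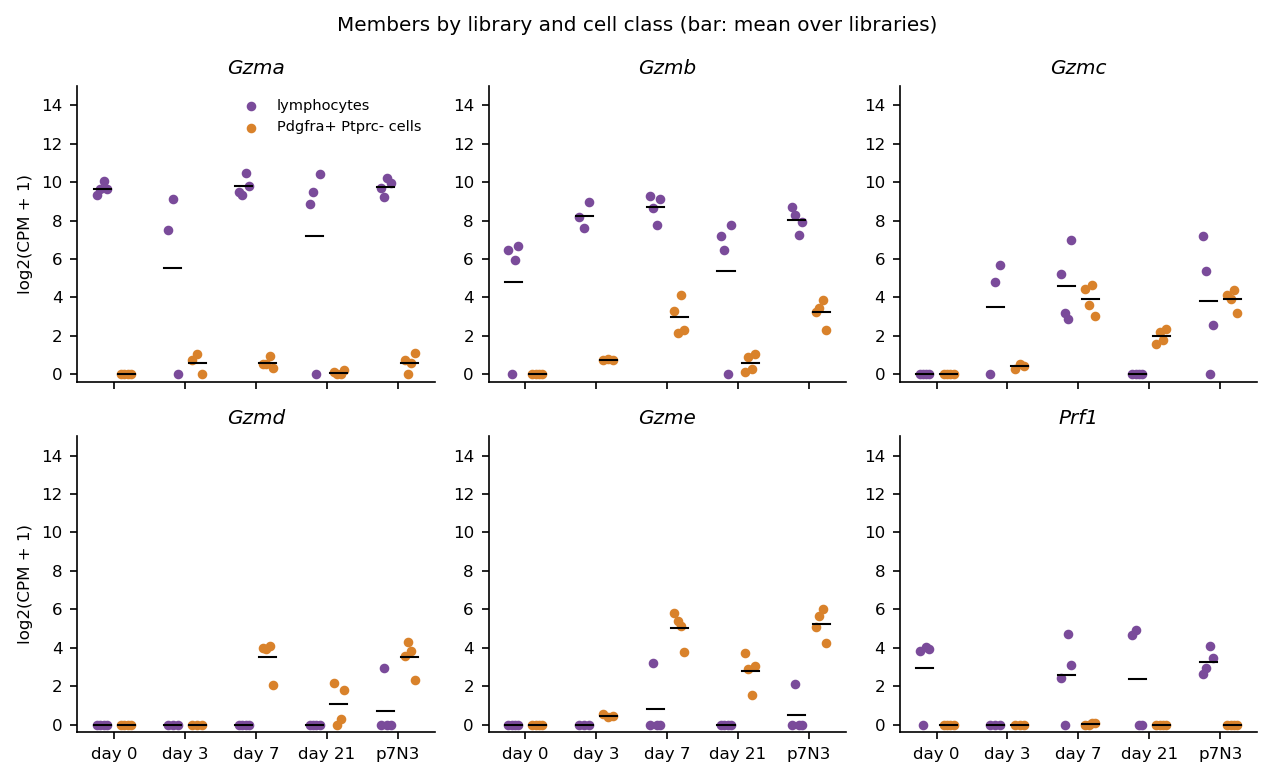
Level of 6 members, as log2(CPM + 1) on the vertical axis, by time and p7N3 on the horizontal axis; each point is a library, purple for lymphocytes and orange for Pdgfra+ Ptprc- cells, and bars are means of the logged values. Gzma stays at the bottom in the orange class, whereas Gzmd and Gzme rise there at day 7 and are near 0 in the purple class.

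In order of mean level over libraries (± SD), Gzmb in lymphocytes was highest at day 7 (447 ± 177 CPM, n = 4), then at day 3 (328 ± 152, n = 3), after p7N3 (282 ± 114, n = 4), at day 21 (113 ± 91.6, n = 4) and at day 0 (62.7 ± 45.0, n = 4). Neighbours in that order overlapped in their library values. The order for Gzme in fibroblasts was p7N3 (40.7 ± 19.9 CPM), day 7 (35.7 ± 17.8), day 21 (7.01 ± 4.22), day 3 (0.367 ± 0.0758) and day 0 (0). Only p7N3 and day 7 overlapped there.

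The rise in fibroblasts can be given as a lower bound, since day 0 held no UMI of these genes and 3 counts over that group correspond to 0.548 CPM. On the summed UMIs, day 7 was at least 62.4-fold higher for Gzme, at least 27.8-fold for Gzmc, at least 21.5-fold for Gzmd and at least 14.5-fold for Gzmb. Leaving out a day 7 library, a choice made after seeing the data, moved the bound for Gzmb to 9.20-fold without replicate 3, and with any 1 library left out the bounds were 52.8 to 77.5 for Gzme, 22.4 to 33.6 for Gzmc, 19 to 27.6 for Gzmd and up to 17.6 for Gzmb. These bounds cover counting error at day 0 alone and not the spread between libraries, so single day 7 libraries can lie below them. The lowest day 7 library was at 12.7 CPM for Gzme, 7.14 for Gzmc, 3.26 for Gzmd and 3.50 for Gzmb, against the floor of 0.548 CPM. Gzmf lay under that floor at both times. In the same contrast edgeR called 53.5% of 12201 genes at an adjusted p under 0.05. That figure is the background of a contrast that chose these members, and no call of theirs is read against it.

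From day 7 to day 21 the fibroblast levels fell by 2.19 on the log2 scale for Gzme (SE 0.47), by 2.60 for Gzmd (SE 0.65), by 2.30 for Gzmc (SE 0.42) and by 3.64 for Gzmb (SE 0.71). All 4 genes moved downward together, in a contrast that called 33.7% of 12929 genes. The lymphocytes of day 21, 5 to 8 in each library, were too few for a fit.

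In lymphocytes from day 0 to day 7, the fitted log2 change was 2.43 (SE 0.42) for Gzmb and 0.00 (SE 0.25) for Gzma, the other members not passing the filter on low counts. That contrast called 29% of 2085 genes. The make-up of the class differed at the same time. B cell-like cells held more than a single B cell marker, and more UMIs of these than of Cd3d, Cd3e and Cd3g. T cell-like cells were the others with any UMI of Cd3d, Cd3e or Cd3g. NK cell-like cells were those of the rest with more than a single NK cell marker. Day 0 lymphocytes comprised 71 B cell-like, 17 T cell-like and 13 NK cell-like cells of 104, and those of day 7 comprised 2 B cell-like, 110 T cell-like and 71 NK cell-like cells of 218. Its part in the Gzmb change was not tested. Within NK cell-like cells Gzmb was 695 CPM at day 0 (13 cells) and 415 CPM at day 7 (71 cells), and within T cell-like cells 0 and 706 CPM, all summed over the group.

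p7N3 did not separate the members from day 7. Fitted log2 differences, p7N3 minus day 7, were 0.19 (SE 0.43) for Gzme, -0.04 (SE 0.49) for Gzmd, -0.12 (SE 0.37) for Gzmc and 0.13 (SE 0.49) for Gzmb in fibroblasts. In lymphocytes they were -0.71 (SE 0.32) for Gzmb and -0.08 (SE 0.27) for Gzma. Over all genes edgeR called 0% of 13118 genes in fibroblasts (0 genes, with 1909 at an unadjusted p under 0.05, and 164 called by DESeq2) and 0% of 3672 genes in lymphocytes (0 genes, 187 at an unadjusted p under 0.05, and 1 called by DESeq2). Standard errors of this size leave room for differences in either direction. Members' libraries of both groups overlapped in both classes.

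Over the whole series the members divided between the classes by gene. Lymphocytes were 1.45% of all cells and held 0.708% of all UMIs, and fibroblasts were 25.4% of cells with 36.2% of UMIs. Gzma placed 81.0% of its 2934 UMIs in lymphocytes and 2.49% in fibroblasts. Gzmb was split, with 38.2% of 2849 UMIs in lymphocytes and 33.1% in fibroblasts. Cells with both Pdgfra and Ptprc, 3.96% of all cells with 8.13% of UMIs, held 8.46% of its UMIs. Ptprc+ Pdgfra- cells outside the gates, 3.98% of all cells, held 4.95%. Summed over day 7, Gzmb was at 13.9 CPM in the former, 20.9 CPM in the latter and 7.95 CPM in fibroblasts. After p7N3 these values were 14.6, 6.84 and 8.71 CPM.

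Gzmc, Gzmd and Gzme placed most of their UMIs in fibroblasts. The share there was 64.8% of 2668 UMIs for Gzmc, 63.7% of 2134 for Gzmd and 67.5% of 6318 for Gzme. Lymphocytes held 4.87%, 0.0937% and 0.0633% of them. Cells with neither Pdgfra nor Ptprc and outside the endothelial gate, 28.0% of all cells, held a further 17.5%, 25.2% and 20.1%. Those with both Pdgfra and Ptprc held 9.56%, 7.03% and 9.75%. In them Gzme was at 32.1 CPM at day 7 and 44.3 CPM after p7N3, against 34.2 and 39.0 CPM in fibroblasts. As a level over all libraries summed, Gzmc was higher in lymphocytes (41.4 CPM, from 130 UMIs) than in fibroblasts (10.8 CPM). Gzmd and Gzme were at 0.637 and 1.27 CPM in lymphocytes and at 8.46 and 26.6 CPM in fibroblasts.

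**Figure D2:**
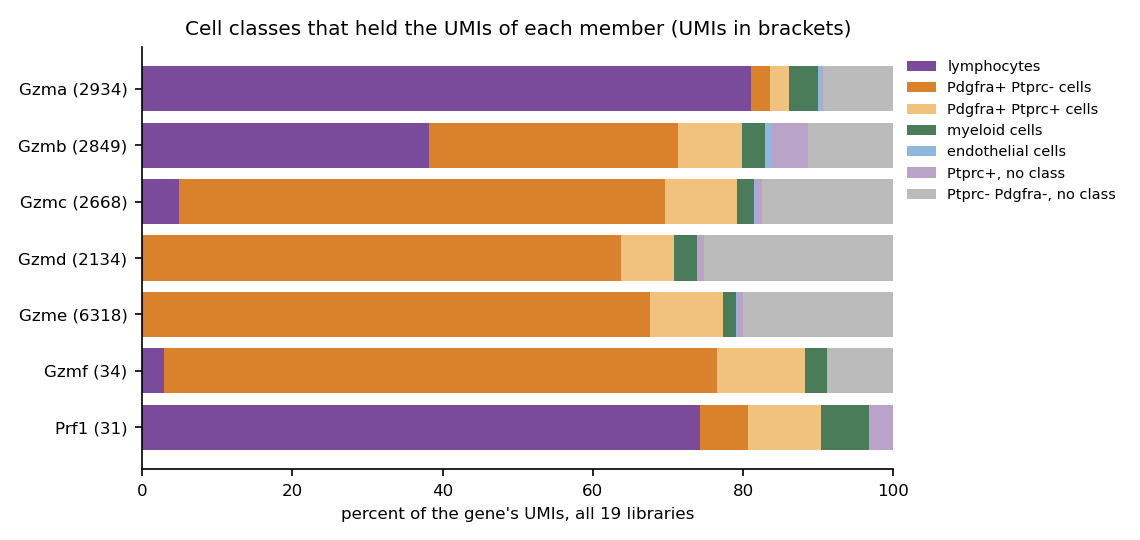
Percent of each gene's UMIs, summed over all 19 libraries, that fell in each cell class; the total UMIs stand in brackets after the gene. Gzma and Prf1 fall mostly in lymphocytes (81.0% and 74.2%) and Gzmc, Gzmd and Gzme mostly in Pdgfra+ Ptprc- cells (64.8%, 63.7% and 67.5%).

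The 4 granzymes that are not members had few UMIs. In day 7 fibroblasts there were 53 UMIs of Gzmn, 28 of Gzmm and 9 of Gzmg, and in lymphocytes of that time 14 of Gzmk and 7 of Gzmm. Gzmn and Gzmg, which lie between Gzmd and Gzmf, had 0 UMIs in lymphocytes at every time. None of the 4 passed the filter on low counts except Gzmn in fibroblasts between p7N3 and day 7, where its log2 difference was -0.36 (SE 0.47, adjusted p = 0.769 by edgeR).

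Within lymphocytes, Gzma was higher in NK cell-like than in T cell-like cells, and Gzmb did not pass the test. The members were not chosen by this contrast, but the same lymphocytes entered that choice. The gates were set with earlier results of these data known. The comparison used the 7 libraries of day 7 and p7N3 with at least 10 NK cell-like and 10 T cell-like cells, 128 and 194 cells in all. In those libraries Gzma measured 1929, 3099, 3106, 3079, 2039, 1951 and 3607 CPM in NK cell-like cells and 248, 167, 384, 80.7, 70.7, 67.8 and 411 CPM in T cell-like cells. NK cell-like cells were higher in 7 of 7 libraries and the classes did not overlap. The log2 fold change was 3.91 (SE 0.26), with an adjusted p of 1.45e-07 by edgeR's quasi-likelihood test with library as a block.

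For Gzmb the classes overlapped. It was 386, 552, 453, 318, 476, 194 and 259 CPM in NK cell-like cells and 827, 582, 73.8, 984, 495, 435 and 160 CPM in T cell-like cells, with NK cell-like cells higher in 2 of 7 libraries. The fitted log2 difference, NK cell-like minus T cell-like, was -0.33 (SE 0.32, adjusted p = 0.605 by edgeR). In this contrast 15.4% of 1518 genes were called, of which Gzma was 1 and Gzmb was not. Markers of plasmacytoid dendritic cells, which can also carry Gzmb, were at 94.2 to 433 CPM in day 7 lymphocytes and their part was not tested. Postn and Dcn, genes of the fibroblast lists, were called lower in NK cell-like than in T cell-like cells, by 1.36 and 1.20 on the log2 scale. Those calls were lost in 6 of 15 and 6 of 12 alternatives. The part of such transcripts in this contrast was not tested.

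Gzmc leaned to the NK cell-like cells, with 103 UMIs there and 12 in T cell-like cells. It was higher in 4 of 7 libraries and at 0 in the NK cell-like cells of 3, and it did not pass the filter on low counts. Prf1 had 10 and 5 UMIs and was higher in NK cell-like cells in 6 of 7 libraries, each value resting on at most 3 UMIs.

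**Figure D3:**
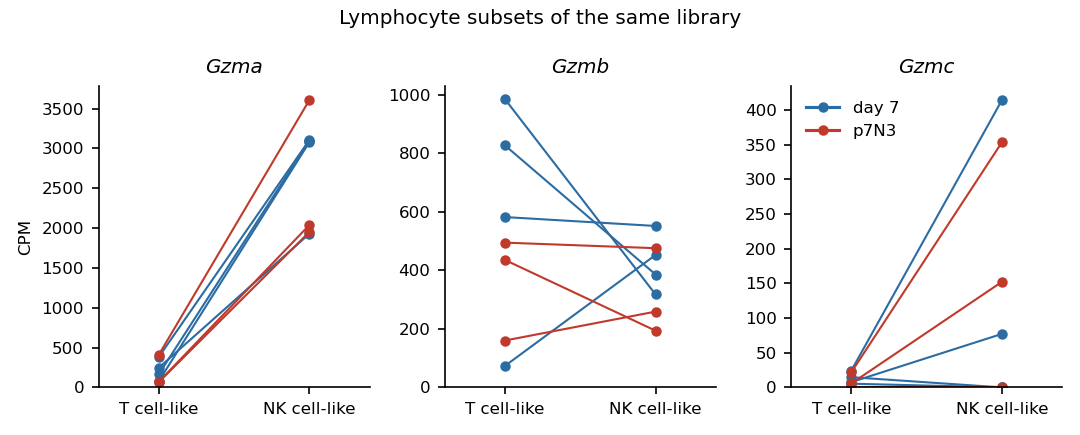
CPM in T cell-like and NK cell-like lymphocytes of the same library, joined by a line, for 7 libraries of day 7 (blue) and p7N3 (red). Every Gzma line climbs to the NK cell-like side, from 67.8 to 411 CPM up to 1929 to 3607 CPM, whereas the Gzmb lines go both ways.

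At each time the UMIs were placed as follows, given as values without a test. At day 0 all 24 Gzmb UMIs and 212 of 246 Gzma UMIs of lymphocytes were in the 13 NK cell-like cells. At day 3, 91.4% of the Gzmb UMIs were in T cell-like cells, and all 90 Gzma UMIs were in 3 of the 4 NK cell-like cells. At day 7, T cell-like cells held 75.8% of the Gzmb and 13.1% of the Gzma UMIs. At day 21, T cell-like cells held 64.8% of the Gzma and 63.6% of the Gzmb UMIs, and all 81 of those Gzma UMIs were in 1 cell.

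Genes that load or release granzymes were read from lists of such genes, beside a list of serpins. Between NK cell-like and T cell-like cells, 7 of 8 granule loading genes were tested, and 2 rose and 1 fell. The contrast called 15.4% of 1518 genes, 115 of them as higher, and the list counts are not read as a result about the lists. Nkg7, a granule membrane protein, was higher by 2.09 (SE 0.16) and Ctsw, a cathepsin of killer cells, by 1.72 (SE 0.22) on the log2 scale, and Srgn, the proteoglycan core that binds granzymes in the granule, was lower by 0.52. The median of the tested list was 0.38, against -0.03 over all genes. The 3 tested serpins, Serpinb6b, Serpinb9 (an inhibitor of granzyme B) and Serpina3g, were all higher in NK cell-like cells, by 2.27, 2.95 and 3.03. Eomes, a transcription factor of NK and memory T cells, was higher by 2.74 and Il2rb, a receptor chain for IL-2 and IL-15, by 1.19.

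Between day 0 and day 7, lymphocytes also rose in Cst7 (log2 2.04), an inhibitor of the cathepsins that activate granzymes, Ctsw (1.5), Serpinb6a (2.08) and Serpina3g (2.22), with the change of make-up given above. The calls for Cst7 and Ctsw were lost when Ptprc needed at least 2 UMIs. Leaving out day 0 replicate 1 removed the calls for both serpins, and leaving out day 0 replicate 4 that for Serpina3g. In total 2 of 8 tested loading genes and 2 of 4 tested serpins rose, and none fell. The contrast called 29% of 2085 genes, 268 of them as higher, and these counts are not read as a result about the lists.

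Fibroblasts of day 7 held more Ctsc (log2 2.48, SE 0.25), the cathepsin that trims granzymes to their active form, than at day 0, and more Calr (0.88), a chaperone also found in killer granules. These were 2 of 5 tested loading genes, and 3 of 5 tested release genes rose (Vamp8 0.63, Stx11 0.88, Stxbp2 1.37), in a contrast that called 53.5% of all genes tested, 3306 of 12201 of them as higher. These counts are not read as a result about the lists. Markers of other cells in the fibroblast sums also differed between day 0 and day 7. The 8 myeloid markers together were at 34.7 to 119 CPM in day 0 libraries and 148 to 240 CPM in day 7 libraries. For 4 granulocyte markers the values were 4.65 to 18.7 and 59.7 to 167 CPM. Their part in these changes was not tested. The call for Stx11 was lost without day 0 replicate 4. That for Stxbp2 was lost in 7 of the 11 alternatives that tested it. These were DESeq2, no filter, the replicate block, the top Scrublet scores left out, and day 0 replicate 1, 2 or 3 left out. Serpina3g had 0 UMIs at day 0 and was at least 29.1-fold higher at day 7 on the summed UMIs, a bound that leaves out the spread between libraries. Of 5 tested serpins 2 rose, Serpina3g and Serpinb6b, the call for Serpinb6b being lost in 3 of 11 alternatives. From day 7 to day 21 Ctsc fell by 1.36 and Serpina3g by 1.57. The 10 genes of the activated fibroblast list all rose by day 7 and the 10 of the resting list all fell, and 9 of 10 cell cycle genes rose. The lists were chosen with earlier results of these data known, so these directions are a description and not a test.

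Granzyme UMIs of fibroblasts were concentrated in the same cells. At day 7, cells with a Gzme UMI held a Gzmd UMI in 34.5%, a Gzmc UMI in 42.2% and a Gzmb UMI in 17.6% of cases, against 1.3%, 5.68% and 1.66% of cells without Gzme. By library the Gzmb share ranged from 7.95% to 29.2% with Gzme and from 1.19% to 1.95% without it. For Gzma the values were 1.28% and 0.694%, from 5 of 391 and 23 of 3312 cells.

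After p7N3 and at day 21 the pattern was of the same kind. With a Gzme UMI, 32.0%, 44.7% and 22.8% of p7N3 cells held Gzmd, Gzmc and Gzmb, and 1.75%, 6.48% and 2.65% of the others. At day 21 the shares were 16.1%, 32.1% and 7.14% among 56 cells with Gzme, and 0.163%, 2.61% and 0.435% among the rest. Cells with Gzme were also deeper, which raises the chance of finding any transcript, and the part of depth was not tested for these shares.

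**Figure D4:**
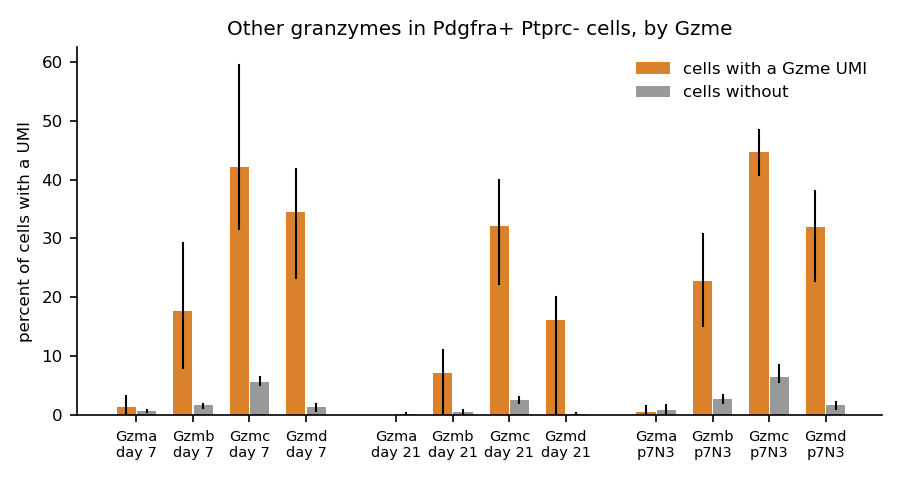
Percent of Pdgfra+ Ptprc- cells with a UMI of Gzma, Gzmb, Gzmc or Gzmd, in cells with a Gzme UMI (orange) and without (grey), at day 7, day 21 and after p7N3, with black lines for the range over libraries. Gzmb, Gzmc and Gzmd are more frequent beside Gzme at each time (42.2% against 5.68% for Gzmc at day 7), and Gzma is at 1.28% and 0.694% at day 7.

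Expression per cell was uneven. At day 7 the 1957 Gzme UMIs lay in 391 cells, of which 166 held 1 UMI and the highest held 121. The 40 highest cells held 49.2% of them. For Gzmb, 13 of 124 cells held 46.4% of 455 UMIs, with at most 48 in a cell, and for Gzma 27 of 28 cells held a single UMI.

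Fibroblasts with a Gzmd, Gzme or Gzmf UMI were then compared with those without, within each library. They were 8.70% to 16.4% of the class at day 7, 1.75% to 4.52% at day 21 and 9.06% to 16.6% after p7N3, and 10 libraries had at least 10 of them. The members and other granzymes were left out of the calls because they defined the split. With library as a block, edgeR called 12.8% of 11551 genes, 702 higher and 771 lower in the positive cells. When the cells were first thinned to 3000 UMIs each and split again, 538 genes were called.

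Genes higher in the positive cells in 10 of 10 libraries included Pdzrn4 (log2 fold change 2.68, 25.5 against 3.73 CPM), which was not tested after thinning. Wfdc18 (1.88), Cd24a (1.75), a surface glycoprotein, and Pappa (1.71), a protease that frees insulin-like growth factors from a binding protein, came next. Camk4 (1.68), a calcium-dependent kinase, Bdnf (1.54), a neurotrophin, A630023A22Rik (1.49), Smoc1 (1.49), a matrix protein that modulates BMP signalling, Sbspon (1.45) and Cpxm2 (1.37) completed the 10. Their adjusted p by edgeR ran from 1.44e-06 for Camk4 to 0.000399 for Wfdc18, and the 9 tested after thinning were higher there too.

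Lower genes in the positive cells, again in 10 of 10 libraries, were led by Myoc (log2 fold change -3.29, 2.38 against 37.7 CPM). Gdf10 (-2.84), a ligand of the TGF-beta family, Sfrp4 (-2.47), a secreted Wnt inhibitor, Ccl11 (-2.42), the eosinophil chemokine, and Kera (-2.20), a small matrix proteoglycan, followed. Tnxb (-2.17), a tenascin, Itih5 (-2.15), Clec3b (-2.08), Rgs5 (-2.01), a G protein regulator, and Ifi27l2a (-1.85), an interferon-induced gene, made up the rest. Adjusted p by edgeR ran from 4.36e-07 for Gdf10 to 3.25e-05 for Ccl11, and all 10 were lower after thinning.

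**Figure D5:**
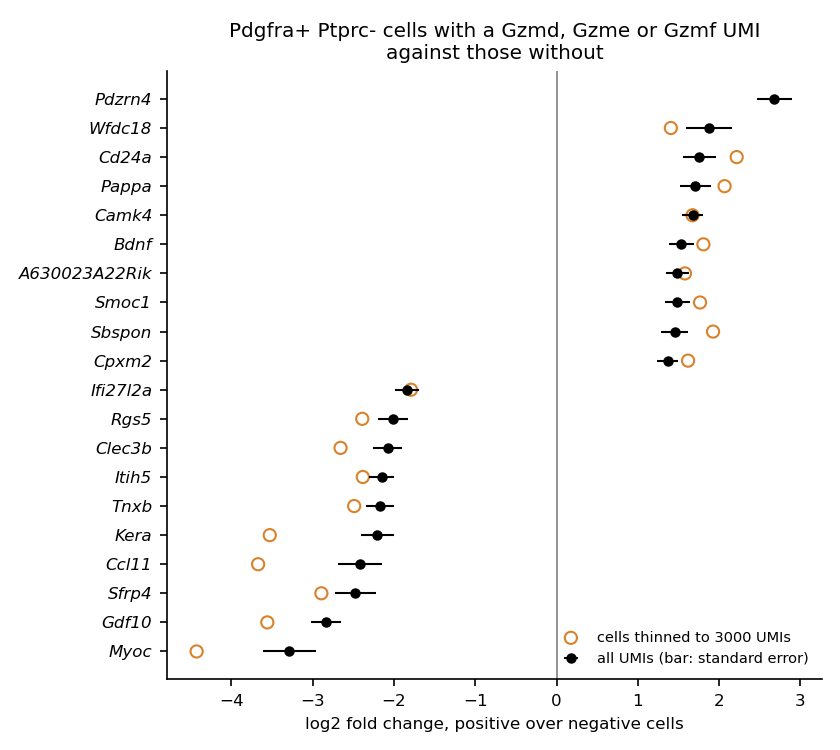
Log2 fold change, positive over negative Pdgfra+ Ptprc- cells, of the 10 largest eligible differences in each direction, with the standard error as bars (10 libraries); open circles give the value after thinning to 3000 UMIs per cell. Pdzrn4 is highest at 2.68 and Myoc lowest at -3.29.

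By list, resting fibroblast genes were lower in the positive cells: 8 of 10 fell (Dpp4 -3.03, Pi16 -1.59, Gsn -1.33, Cd34 -1.01 among them) and 1, Smoc2, rose (0.59), with a list median of -1.17 against 0.00 over all genes. The call for Scara5 was lost in 7 of 20 alternatives, thinning among them, and that for Smoc2 in 5, of which 4 left out a single library. Of 10 activated fibroblast genes 4 rose (Col11a1 0.65, Tnc 0.56, Col12a1 0.45, Postn 0.40) and 2 fell (Crabp1 -1.39, Lrrc15 -0.50), the call for Lrrc15 being lost in 8 of 20 alternatives, 7 of them with a single library left out. Of 4 tested cartilage genes 2 rose and 2 did not pass. Those that rose were Sox9, the cartilage transcription factor, by 0.77 and Acan, the cartilage proteoglycan, by 0.92. Of 5 tested tendon genes 1 rose, Tnmd, a tendon membrane protein, by 0.49, and 4 did not pass, with a list median of 0.03. The call for Tnmd was lost in 3 of 20 alternatives, among them the stricter gate and at least 2 UMIs in positive cells. None of the 10 cell cycle genes passed, with a list median of -0.23. Because the lists were chosen with earlier results of these data known, the list counts are given as a description.

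The granule genes went both ways in the positive cells. Srgn was higher by 0.81 (SE 0.15) and Calr by 0.19, the latter call lost after thinning, whereas Ctsc was lower by 0.76 (SE 0.12) and Ctsh, a cathepsin, by 0.50. Serpina3g fell by 0.95 (SE 0.15) and Serpinb1a by 0.36, a call lost in 12 of 20 alternatives. The transcription factors Prdm1, Id2 and Zeb2 were lower by 1.44, 0.39 and 0.39, and the call for Zeb2 was lost in 5 of 20 alternatives, 4 of them with a single library left out. None of 5 tested release genes passed.

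Signs of other cells were counted in the positive fibroblasts. T or NK cell markers together were at 3.82 CPM in positive and 2.33 CPM in negative cells at day 7, and at 1.85 and 1.95 CPM after p7N3, and at least 4 of 5 fibroblast markers were present in 437 of 437 positive cells at day 7. Myeloid markers together were at 159 CPM in positive and 190 CPM in negative cells at day 7, and at 152 and 212 CPM after p7N3. Any UMI of them was held by 85.8% of positive and 77.8% of negative cells at day 7. Positive cells were deeper, with a median of 17019 against 13524 UMIs at day 7 and 25298 against 14160 at day 21. The share within the top doublet scores was 2.75% in positive and 3.37% in negative cells at day 7, and 10.2% and 3.22% at day 21.

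Among 7996 genes of at least 10 CPM, the 5 whose log2(CPM + 1) was most like that of Gzme over the 19 fibroblast sums were Cnn3 (Pearson r = 0.944), Sox4 (0.930), Tsc22d1 (0.921), Anp32a (0.920) and Ppib (0.918). For Gzmb over 14 lymphocyte sums, among 7661 genes, they were Atxn10 (0.970), Ilk (0.969), Mrpl19 (0.966), Skap1 (0.965), which is 1 of the gate genes, and Borcs8 (0.965). Points of a time share depth and cell make-up, so these values describe the same course over the groups.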

How the data were processed

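The authors made the libraries with 10x Genomics Chromium 3' v2 chemistry and aligned them with Cell Ranger to mm10; per the labels the submitters' notes name Cell Ranger and Seurat, and list GRCh38 for 15 libraries and mm10 for the 4 numbered 4, while the gene identifiers are those of mouse. The deposited matrices hold raw UMI counts per gene and cell for 27998 genes. Positions came from GENCODE vM21 and promoters from RefSeq.

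A cell needed 500 detected genes, and its mitochondrial share could reach 25%. Doublets were not removed, and an alternative left out the top 3.9% of Scrublet scores (scanpy 1.11.5). Cell classes followed fixed UMI gates that used no granzyme. Of the lymphocyte gate, Trac, Trbc1, Trbc2 and Trdc matched no gene name in the matrices. Counts were summed per library and class with at least 10 cells, and fitted with edgeR 4.0.16 (limma 3.58.1, R 4.3.3), by its quasi-likelihood test with TMM factors and Benjamini-Hochberg adjustment over all genes tested; only the groups compared entered a fit. DESeq2 1.42.0, other filters and gates, thinning and left-out libraries were alternatives. Standard errors of the edgeR log2 changes were derived as the absolute change divided by the square root of the quasi-likelihood F statistic. The fits were tested on simulated data. CPM were computed from the deposited counts. The floor used for bounds was 3 counts and reflects counting error alone.

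The members, gates and lists were chosen with earlier results of these data known. Named were every member and other granzyme, and part of the listed genes that passed an adjusted p of 0.05. Listed genes that passed without being named above include Id2, Runx3, Postn and Gsn in lymphocytes (day 7 against day 0). Of these Postn, from the activated fibroblast list, rose by 6.1 on the log2 scale and Gsn, from the resting list, fell. In fibroblasts such genes include Il15, Il18, Il2rg, Id2 and Zeb2 (day 7 against day 0), and Tnf and Lamp1 (day 21 against day 7). Between NK cell-like and T cell-like cells they include Id2. Also named were the 10 largest changes in each direction between positive and negative cells. These had the same sign in every library and a mean of at least 20 CPM. The 5 genes most like Gzme and Gzmb were named too.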

Additional observations from a re-analysis of the deposited data

Results flagged for a closer look

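Gzmd in fibroblasts of day 7 replicate 4 was 3.26 CPM, far below the other 3 day 7 libraries, of which the nearest was 14.4 CPM and the highest 16.0 CPM. The gap to the nearest library was a larger part of the group's range than Dixon's limit of 0.829 for 4 samples allows. It was 1 of 25 groups examined, and chance flags about 1 in 20 groups. Gzme (12.7 CPM) and Gzmc (7.14 CPM) were also lowest in that library among those of day 7. Of the p7N3 libraries replicate 4 was likewise the lowest, at 4.10 CPM for Gzmd, 17.8 for Gzme, 8.27 for Gzmc and 4.03 for Gzmb, whereas at day 21 replicate 4 was highest for Gzmb (1.12 CPM) and Gzmc (4.16 CPM). The 4 libraries numbered 4 are those whose processing notes list mm10, where the other 15 list GRCh38, and the part of that difference was not tested.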

How the results depend on the processing

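Not every same-numbered pair deviated together (correlations over genes from -0.205 to 0.314), so the numbers were not read as pairs. With the replicate number as a block the calls were 6079 and 3835 in fibroblasts (day 7 against day 0, day 21 against day 7), 557 in lymphocytes (day 7 against day 0) and 0 for p7N3 in both classes. In fibroblasts p7N3 against day 7 gave 164 calls by DESeq2, 19 without a filter, 16 in a single fit of all groups, and 0 to 27 with 1 library left out (27 without day 7 replicate 1, 4 without day 7 replicate 4, 1 without p7N3 replicate 1). In lymphocytes it gave 1 by DESeq2 and 120 without a filter. Lymphocytes of day 7 against day 0 (604 calls) gave 996 without a filter, 942 in the single fit, 321 with at least 2 UMIs of Ptprc, and 447 to 661 with 1 library left out. NK cell-like against T cell-like (234 calls) gave 500 without a filter and 161 to 276 with 1 library left out, the Gzma call holding in each. Positive against negative fibroblasts (1473 calls) gave 557 without the library block, 538 after thinning, and 1094 to 1698 with 1 library left out. With 1 library left out, fibroblasts gave 5347 to 6355 calls (day 7 against day 0) and 3162 to 4772 (day 21 against day 7), and the day 7 means were 748 to 1015 CPM (Gzma, lymphocytes), 393 to 524 (Gzmb, lymphocytes), 5.39 to 9.80 (Gzmb, fibroblasts) and 29.2 to 43.4 (Gzme, fibroblasts). Single-gene alternatives were counted only where the gene was tested. In fibroblasts of day 7 against day 0 these were 11 for Stxbp2 and 17 for Acta2. Of 2354 such alternatives for 137 single-gene results, 187 lost a call and 0 changed direction. Apart from the alternatives' own construction, the cause of these shifts was not tested. Day 21 lymphocytes were too few for a fit, and for members' levels thinning gave shares of cells only. Depth limits Prf1 and Gzmf, with 31 and 34 UMIs in all.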
